A study of Mus musculus with 20 samples.

Results

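Gdf15 is the gene of growth differentiation factor 15, a secreted stress factor, and it is described here alone: 1 of 42374 genes, with 2 of the 128643 transcripts that could be placed in the mouse annotation. It was selected on values of these libraries, being lower without Atf4 in endothelial cells of oxidative muscle and higher in those of glycolytic muscle. Its levels and differences are therefore a description and carry no p-value, while the tests concern other genes. The study measured RNA of muscle endothelial cells, sorted as CD31+ CD45- cells from C57BL/6N mice, in 20 libraries. Oxidative muscle was the soleus and glycolytic muscle the extensor digitorum longus. The 4 groups of 5 libraries were glycolytic wild type (WT), glycolytic Atf4 ECKO (endothelial Atf4-/-), oxidative WT and oxidative Atf4 ECKO. All mice, the controls included, received 1 mg tamoxifen a day for 5 days at an age of 8 to 10 weeks, and at least 7 days passed before use. The WT mice were littermates without Cre. The Cre driver and the number of animals behind a library are not given in the sources used here, so the p-values speak of the spread among these libraries alone, and that spread may be technical. Library totals ran from 8013223 to 21720127 estimated counts.

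GDF15 is a distant member of the TGF-beta family that cells release under stress. Its known receptor is GFRAL, which signals with RET in neurons of the hindbrain and reduces food intake. The Gdf15 gene is a known target of ATF4 and its partner CHOP in the integrated stress response, in which phosphorylated eIF2alpha slows protein synthesis while Atf4 translation rises, and it is also a known target of p53.

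Gdf15 (ENSMUSG00000038508.7, protein coding) lies on the minus strand of chromosome 8 from 70629393 to 70632456 on GRCm38, and no other annotated gene overlaps it. Gdf15-201 has 2 exons and 1545 bases. Gdf15-202 has 3 exons and 1380 bases, and its separate first exon, from 70632150 to 70632456, is untranslated. Both transcripts carry the same coding sequence, so a difference between them concerns the start of the RNA and not the protein. The stretch shown here is the 236 bases at chr8:70632471-70632706, which end shortly before the outermost start that RefSeq annotates (GRCm38.p6, minus strand, 5′ to 3′). It is shown because ATF4, p53 and other factors named below act through DNA letters. Capitals mark the only match found in it, CATCA, which is TGATG on the other strand.
Gdf15 upstream stretch: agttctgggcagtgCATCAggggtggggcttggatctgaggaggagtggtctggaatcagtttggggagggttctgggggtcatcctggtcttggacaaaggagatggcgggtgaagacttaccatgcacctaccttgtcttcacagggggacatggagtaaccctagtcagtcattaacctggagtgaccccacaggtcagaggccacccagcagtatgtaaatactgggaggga

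Matches to 10 motifs were sought on both strands in this stretch and in the rest of the 300-base windows that RefSeq gives for the starts of Gdf15. The C/EBP-ATF response element TGATGNAA, through which ATF4 acts with a C/EBP partner, was not found in these letters. It occurred in 3.97% of 32851 such windows over all genes. Its ATF-binding letters TGATG, added to the search after the longer element was not found, occurred in 39.3% of the windows and lay 1 more time in the Gdf15 windows, just past the start. The letters of the cAMP response element TGACGTCA (1.79% of windows), the AP-1 site TGANTCA (7.81%), the antioxidant response element TGACNNNGC (12.4%), the EGR site GCGNGGGCG (5.55%), the GC box GGGCGG (35.7%), the TATA box TATAAA (13.6%) and the p53 response element's decamer (8.36%) were absent from the Gdf15 windows. The E-box CACGTG (7.15% of windows) occurred 1 time, shortly before the second RefSeq start, which lies inside the gene. An absence says only that the letters are not in these windows. Among the integrated stress response targets followed below, 24 of 28 had a RefSeq window and 9 of them (37.5%) held TGATGNAA, against 4.51% of 27025 genes: Asns, Chac1, Fgf21, Herpud1, Nupr1, Pck2, Slc7a11, Trib3 and Vldlr.

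Oxidative WT endothelium carried by far the most Gdf15 RNA. Levels are given as CPM, counts as a share of the library, scaled with TMM library sizes. The 5 oxidative WT libraries stood at 165, 190, 194, 183 and 184 CPM, with a mean of 183 ± 11.3 (SD, n = 5). The 5 glycolytic WT libraries stood at 32.5, 30.4, 28.9, 31.2 and 26.1 CPM (29.8 ± 2.46). In the ECKO libraries the order of the muscles turned round. The glycolytic ECKO libraries stood at 49.2, 59.2, 53.6, 48.5 and 52.3 CPM (52.6 ± 4.27), and the oxidative ECKO libraries at 24.8, 23.0, 22.3, 17.2 and 25.0 CPM (22.5 ± 3.16). From high to low the order was oxidative WT, glycolytic ECKO, glycolytic WT and oxidative ECKO, and no neighbours in it overlapped. The narrowest gap lay between the lowest glycolytic WT library, at 26.1 CPM, and the highest oxidative ECKO library, at 25.0 CPM. In bulk samples fewer cells with the RNA and less RNA per cell cannot be told apart.

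**Figure D1:**
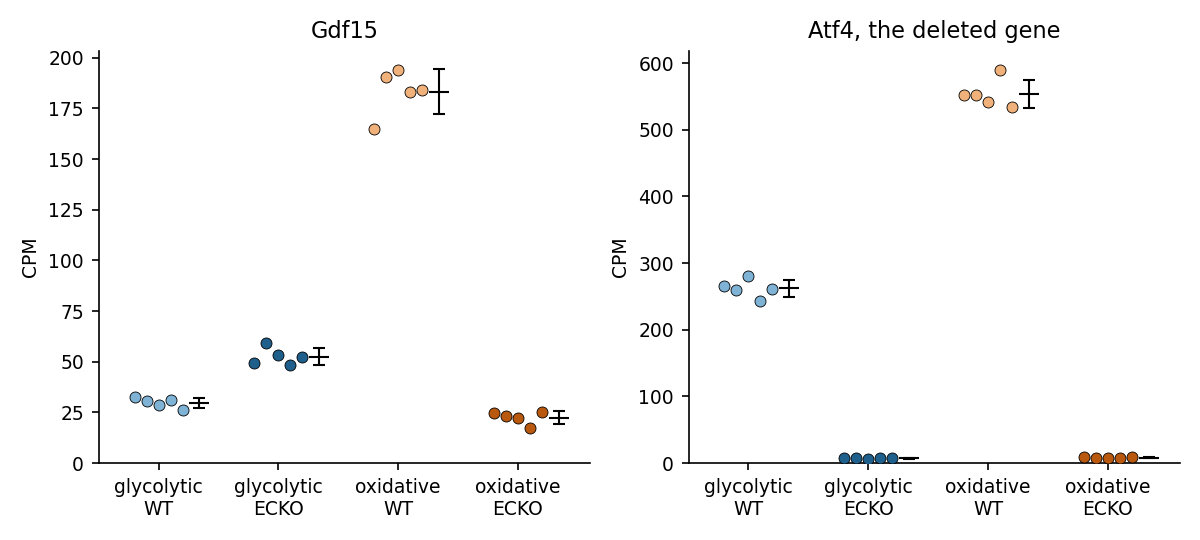
CPM (linear axis) of Gdf15 on the left and of Atf4 on the right, by group. Points are the 5 libraries of a group in order of replicate number, and the bar beside them gives mean and SD. Gdf15 sits between 165 and 194 CPM in oxidative WT and between 17.2 and 25.0 CPM in oxidative ECKO, but is higher in ECKO than in WT in glycolytic muscle.

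Gdf15 in oxidative ECKO stood at 12.3% of its level in oxidative WT, and in glycolytic ECKO at 176% of glycolytic WT. In the edgeR fit of all genes the log2 difference of ECKO from WT was -3.02 ± 0.079 (SE) in oxidative and 0.82 ± 0.079 in glycolytic muscle. Between the muscles, the difference of oxidative from glycolytic was 2.62 ± 0.076 in WT and -1.22 ± 0.082 in ECKO. The difference between both genotype effects, the interaction, was -3.84 ± 0.11, and 36 of the 13971 genes tested, Gdf15 included, had one as negative or more so. These are the values on which Gdf15 was chosen.

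Per length, Gdf15 was among the more abundant RNAs of oxidative WT endothelium. Its deposited abundance was 166 ± 14.0 TPM (transcripts weighted by length, as a share of all, SD, n = 5) there, 58.2 ± 5.37 in glycolytic ECKO, 31.4 ± 2.90 in glycolytic WT and 24.3 ± 3.06 in oxidative ECKO. By rank among all genes it lay between places 664 and 771 in the oxidative WT libraries and between places 3918 and 4953 in the oxidative ECKO libraries. The estimated counts behind a value ran from 195 to 547 in oxidative ECKO and from 1809 to 2916 in oxidative WT, so counting error weighs more on the low group.

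Both transcripts followed the same order of groups in their means. Gdf15-202 carried a median of 62.0% of the estimated counts of the gene over the 20 libraries. Its mean was 106 ± 9.55 TPM in oxidative WT, 35.2 ± 11.3 in glycolytic ECKO, 20.8 ± 2.91 in glycolytic WT and 16.7 ± 2.16 in oxidative ECKO. Gdf15-201, which starts further downstream, stood at 60.2 ± 8.37, 23.1 ± 6.71, 10.6 ± 0.693 and 7.60 ± 1.16 TPM in the same groups. The share of Gdf15-202 was widest spread in glycolytic ECKO, from 32.0% to 73.0%, and ran from 55.3% to 68.1% in the other 15 libraries. In the library with the share of 32.0%, glycolytic ECKO replicate 1, Gdf15-202 stood at 18.6 TPM, within the glycolytic WT range of 17.0 to 23.3 TPM. The rise in glycolytic ECKO therefore shows in all 5 libraries for the gene and for Gdf15-201, but in 4 of 5 for Gdf15-202. How reads are shared between transcripts with so much common sequence is an estimate of the authors' counting.

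**Figure D2:**
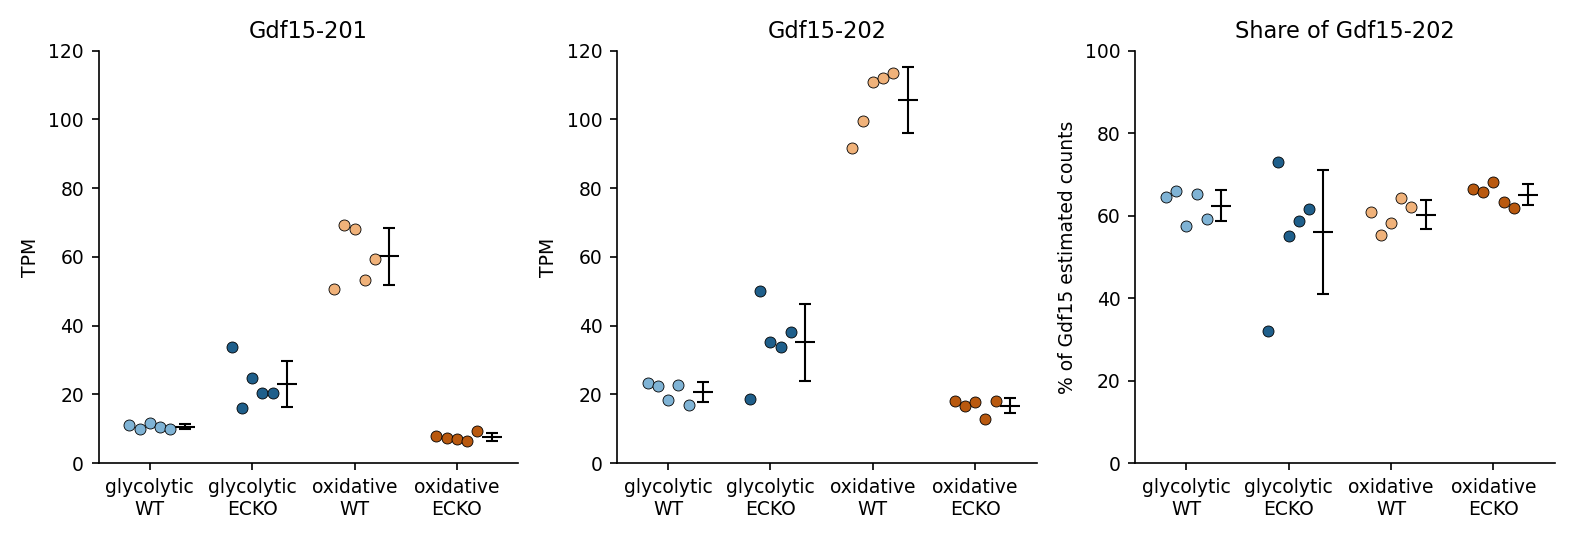
TPM of Gdf15-201 and Gdf15-202 (left and middle, linear axes) and the share of Gdf15-202 in the estimated counts of the gene (right), per library, with mean and SD beside the points. Both transcripts are highest in oxidative WT. The share is lowest, at 32.0%, in glycolytic ECKO replicate 1.

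Atf4 itself was deleted in both muscles. It stood at 262 ± 13.5 CPM in glycolytic WT and 554 ± 21.0 CPM in oxidative WT, against 7.38 ± 0.996 CPM in glycolytic and 8.29 ± 0.351 CPM in oxidative ECKO (SD, n = 5). All 10 ECKO libraries were at most 8.70 CPM and all WT libraries at least 243 CPM, and the remaining Atf4 RNA did not pass the test between the ECKO groups of both muscles (log2 difference 0.19 ± 0.084, edgeR adjusted p = 0.129).

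Libraries differed in more than genotype and muscle. Mitochondrial RNA took 11.3% to 14.2% of the estimated counts in oxidative WT, 7.36% to 10.6% in oxidative ECKO, 5.73% to 6.14% in glycolytic WT and 5.49% to 5.65% in glycolytic ECKO. It was thus highest where Gdf15 was highest, but lower in glycolytic ECKO than in glycolytic WT, where Gdf15 went the other way, and its part in the Gdf15 levels was not tested. All 10 WT libraries carried RNA of the Y chromosome. The glycolytic ECKO libraries carried at most 1.48% of the WT mean and held Xist, the RNA of the silenced X chromosome. Sex and genotype thus cannot be told apart in glycolytic muscle. In oxidative ECKO, replicates 1 to 3 held 61.7%, 62.7% and 30.8% of the WT mean of Y-linked RNA and replicates 4 and 5 held 0.891% and 1.05%. The ECKO groups of both muscles thus differed in sex-linked RNA too. Its part in their Gdf15 difference of -1.22 and in the interaction of -3.84 was not tested. Gdf15 was 24.8, 23.0 and 22.3 CPM in oxidative ECKO replicates 1 to 3 and 17.2 and 25.0 CPM in replicates 4 and 5, which overlap. The oxidative difference was -2.96 with replicates 1 to 3 alone. These 3 also held Xist, at 18.6, 18.0 and 43.8 CPM, against at most 0.274 CPM in a WT library. They are thus not matched in sex to WT, and the part of sex was not tested.

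Markers of other cells moved as well. Summed RNA of 17 immune markers ran from 320 to 416 CPM in oxidative WT, 50.7 to 107 in oxidative ECKO, 33.3 to 38.2 in glycolytic WT and 21.5 to 23.4 in glycolytic ECKO. All 15 immune markers tested were lower in oxidative ECKO than in oxidative WT, with a median log2 difference of -3.13. Over all genes 17.4% were lower in that comparison and 14.6% higher (edgeR's quasi-likelihood test, Benjamini-Hochberg adjusted p below 0.05, as in all counts here). In glycolytic ECKO, where 15.1% of all genes were lower and 13.9% higher, 3 of the 15 were lower (median -0.52), near the share of all genes. No marker was at 0 throughout a group. Ptprc, the gene of CD45, stood at 2.53 CPM in oxidative WT, 0.252 in oxidative ECKO, 0.134 in glycolytic WT and 0.069 in glycolytic ECKO. In glycolytic muscle the immune sum was lower in ECKO, where Gdf15 was higher, and the immune sums of glycolytic WT lay below those of oxidative ECKO, where Gdf15 was lower. Pericyte and smooth muscle markers summed to 2005 to 2069 CPM in glycolytic ECKO and 865 to 877 in glycolytic WT. Of these 10 markers 2, the smooth muscle genes Acta2 and Tagln, were higher in glycolytic ECKO and 1, Pdgfrb, was lower (median -0.02). Both counts were near the shares of all genes. In oxidative muscle the sum ran from 792 to 1220.4 CPM in ECKO and from 594 to 699.9 in WT, with 6 of 10 higher (median 0.46). Muscle fibre markers were higher in both ECKO groups. They summed to 147 to 157 against 60.9 to 68.4 CPM in glycolytic muscle (10 of 15 higher) and to 213 to 281 against 105 to 215 CPM in oxidative muscle (9 of 15 higher), where Gdf15 was lower. Fibroblast markers summed to 121 to 129 CPM in glycolytic ECKO and 51.1 to 59.2 in glycolytic WT, with 4 of 8 higher. They spread widely in oxidative muscle, from 61.4 to 427 CPM in ECKO and from 139 to 328 CPM in WT. The 10 endothelial markers summed to 9187 to 9556 CPM in glycolytic WT and 7722 to 7822 in glycolytic ECKO, with 7 lower. In oxidative muscle the sum ran from 8253 to 8602 CPM in WT and 8736 to 9045 in ECKO. There 3 markers were higher and 2 lower in ECKO. The part of other cells in the Gdf15 levels was not tested.

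Of 7 listed genes for the receptor of GDF15 and for proteases that process such precursors, 6 were expressed enough to be tested, and the receptor itself was not. Gfral had 0 counts in all 20 libraries, which allows up to 3 counts, or 0.374 CPM in the shallowest library, for counting error only. Ret, the co-receptor, was present at 26.8 ± 3.81 CPM in glycolytic WT and 12.0 ± 1.54 CPM in oxidative WT. It fell in ECKO in both muscles, by 0.98 ± 0.17 on the log2 scale in oxidative (edgeR adjusted p = 5.42e-05) and by 0.47 ± 0.15 in glycolytic muscle (adjusted p = 0.018). Furin, a protease of the kind that cleaves TGF-beta family precursors, had group means between 36.9 and 40.01 CPM and did not pass the test in either genotype comparison. Pcsk7, a protease of the same family and the most counted of these genes in each group, rose in both muscles, by 0.29 ± 0.060 in oxidative (adjusted p = 0.000441) and by 0.25 ± 0.059 in glycolytic ECKO (adjusted p = 0.00232). Mmp14, a membrane protease, stood at 21.9 CPM in oxidative WT and 32.6 CPM in oxidative ECKO, and at 24.1 and 17.5 CPM in the glycolytic groups. The change of Mmp14 was the reverse of that of Gdf15 (interaction 1.02 ± 0.17, adjusted p = 7.2e-05).

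Other ligands of the TGF-beta family were called in glycolytic ECKO about as often as genes in general. Of 30 listed ligands 14 were expressed enough to be tested. In glycolytic ECKO 3 were higher and 1 lower, where 13.9% of all genes were higher and 15.1% lower. Those higher were Tgfb2 (1.16 ± 0.10 on the log2 scale, adjusted p = 2.48e-09), Tgfb3 (0.48 ± 0.12) and Bmp4 (0.22 ± 0.072), and Bmp6, a ligand that sets hepcidin, was lower (-0.67 ± 0.068). In oxidative ECKO 2 of 14, Bmp4 and Inhbb, a subunit of activins, were higher (14.6% of all genes), by 0.33 ± 0.073 and 0.93 ± 0.19. By mean TPM, a scale per length, Gdf15 ranked above every one of these ligands only in oxidative WT, at 166 TPM against 47.5 for Bmp4, the next. In the other groups Bmp4 was above it, at 66.6 against 31.4 TPM in glycolytic WT, 87.0 against 58.2 in glycolytic ECKO and 67.4 against 24.3 in oxidative ECKO.

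Known targets of the integrated stress response fell together, and in both muscles. Of 27 tested targets 26 were lower in oxidative ECKO, where 17.4% of all genes were lower (median log2 difference -2.95, against 0.02 over all genes). In glycolytic ECKO 24 were lower, where 15.1% of all genes were (median -1.27, against 0.00). All 24 were among the 26. The 3 others were Sesn2 and Herpud1, which fell in oxidative muscle alone, and Ddit4, which passed in neither comparison. Gdf15 thus fell with the listed targets in oxidative muscle but stood apart from them in glycolytic muscle, by the rise for which it was chosen. The list does not hold Atf3, Ddit3 and Ppp1r15a, described below. These were lower in oxidative ECKO but were not called lower in glycolytic ECKO.

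Asns, which makes asparagine, fell from 339 ± 21.2 to 31.3 ± 1.64 CPM in oxidative muscle and from 141 ± 5.74 to 39.4 ± 1.51 CPM in glycolytic muscle. Shmt2, a mitochondrial enzyme of one-carbon metabolism, fell from 204 to 32.9 CPM and from 61.5 to 32.6 CPM. Trib3, a pseudokinase that feeds back on ATF4, fell from 137 to 17.9 CPM and from 49.2 to 15.8 CPM. Between the ECKO groups of both muscles Shmt2 and Trib3 did not pass the test (adjusted p = 0.945 and 0.22). Slc7a1, a transporter of cationic amino acids, fell by 1.93 ± 0.058 and 0.58 ± 0.060 on the log2 scale, and Eif4ebp1, a brake on translation, by 2.33 ± 0.075 and 0.87 ± 0.074. Over the list, the effect of genotype was more negative in oxidative than in glycolytic muscle for 25 of 27 targets, where 12.5% of all genes had a called negative interaction and 10.1% a positive one.

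Between the muscles of WT mice 26 of the 27 targets were higher in oxidative muscle and 1, Ddit4, was lower, while 16.4% of all genes were higher and 15.9% lower. Among the ECKO groups 3 targets, Asns, Vldlr and Eif4ebp1, were lower in oxidative muscle. In that comparison 8.31% of all genes were higher and 10.1% lower. Gdf15 differed there by -1.22, against -0.33 for Asns, -0.23 for Eif4ebp1 and -0.89 for Vldlr, a lipoprotein receptor.

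Targets of p53 behaved otherwise. Of 22 tested, 11 were higher and 3 lower in glycolytic ECKO (13.9% and 15.1% of all genes), with a median of 0.29. In oxidative ECKO 6 were higher and 7 lower (14.6% and 17.4% of all genes), with a median of -0.08. Without the oxidative ECKO replicates that carried Y-linked RNA, 3 were higher in oxidative ECKO. The interaction was called for 12 of 22 in the direction of Gdf15 (12.5% of all genes) and for 1, Fas, in the other (10.1%). Pmaip1, which encodes the death factor NOXA, rose in glycolytic ECKO from 1.64 ± 0.645 to 23.5 ± 1.51 CPM (adjusted p = 1.14e-15). In oxidative muscle it stood at 10.3 ± 1.34 and 11.8 ± 2.03 CPM, and that difference did not pass. Cdkn1a, the cell cycle inhibitor p21, rose from 293 ± 6.70 to 640 ± 18.0 CPM in glycolytic ECKO (adjusted p = 1.17e-09) and stood at 674 and 638 CPM in oxidative muscle.

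Mdm2 and Eda2r were the p53 targets with calls in the same opposite directions as Gdf15, a pair of calls made for 2.31% of all genes tested. Mdm2, the ligase that degrades p53, stood at 115 ± 9.01 and 91.4 ± 6.24 CPM in oxidative WT and ECKO, and at 72.4 ± 5.31 and 105 ± 4.79 CPM in glycolytic WT and ECKO. Its log2 differences were -0.33 ± 0.058 (adjusted p = 7.63e-05) and 0.53 ± 0.059 (adjusted p = 9.9e-08). Eda2r, a receptor of the TNF family, differed by -0.50 ± 0.064 and 0.61 ± 0.066. Gadd45a, which is also tied to ATF4, fell in both muscles, from 74.7 to 12.4 CPM and from 12.9 to 9.07 CPM. Trp53 itself rose in glycolytic ECKO by 0.41 ± 0.054 on the log2 scale (adjusted p = 1.58e-06) and did not pass in oxidative ECKO (adjusted p = 0.216).

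**Figure D3:**
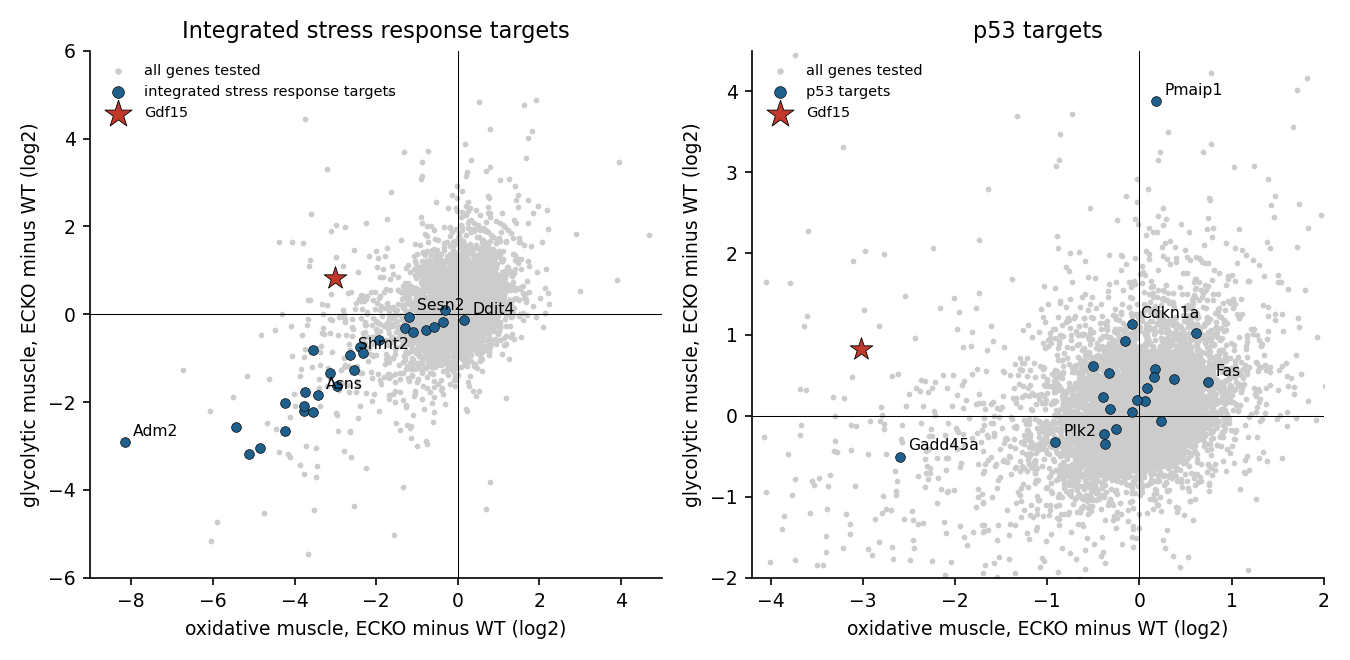
Log2 difference of ECKO from WT in oxidative muscle (x) against that in glycolytic muscle (y). Grey points are all genes tested, blue points the integrated stress response targets (left) or the p53 targets (right, closer view that leaves out grey points beyond its axes), and the red star is Gdf15. Most stress response targets lie below 0 on both axes, p53 targets lie around 0 on x with 11 of 22 called above 0 on y, and Gdf15 lies at -3.02 and 0.82.

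The list of transcription factors tied to Gdf15 holds Trp53 and the deleted Atf4, whose place among the lower ones in both muscles was set by the design. With these included, 9 of 18 were lower and 3 higher in oxidative ECKO (17.4% and 14.6% of all genes). In glycolytic ECKO 8 were lower and 2 higher (15.1% and 13.9%), so the counts of higher factors were near those of genes in general. Atf3, which is induced with ATF4, fell from 327 ± 64.1 to 83.5 ± 5.08 CPM in oxidative muscle (adjusted p = 1.11e-15). In glycolytic muscle it stood at 76.6 ± 2.56 and 66.5 ± 3.07 CPM, which did not pass (adjusted p = 0.105). Ddit3, the gene of CHOP, fell by 0.44 ± 0.080 on the log2 scale in oxidative ECKO (adjusted p = 9.29e-05) and differed by 0.17 ± 0.084 in glycolytic ECKO (adjusted p = 0.142). Fos, a part of AP-1, fell from 1089 to 365 CPM in oxidative and from 213 to 184 CPM in glycolytic muscle.

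Of 14 tested kinases of eIF2alpha and their partners, which act upstream of ATF4, 4 were higher and 4 lower in oxidative ECKO (14.6% and 17.4% of all genes). In glycolytic ECKO 4 were higher and 2 lower (13.9% and 15.1%). Ppp1r15a, which recruits the phosphatase that restores eIF2alpha, changed most. It fell from 361 ± 3.86 to 108 ± 7.64 CPM in oxidative muscle and stood at 96.0 ± 4.99 and 106 ± 1.69 CPM in glycolytic WT and ECKO, a rise of 0.15 ± 0.046 on the log2 scale (adjusted p = 0.0162). Eif2b1, a subunit of the exchange factor eIF2B, fell by 0.19 ± 0.065 in oxidative ECKO (adjusted p = 0.0242) and rose by 0.22 ± 0.065 in glycolytic ECKO (adjusted p = 0.0131). Eif2b3, another subunit, rose by 0.49 ± 0.087 in glycolytic ECKO and did not pass in oxidative ECKO (adjusted p = 0.131). Eif2ak1, the kinase HRI, went the other way, by 0.22 ± 0.064 and -0.19 ± 0.064. Eif2s1, which encodes eIF2alpha, fell by 0.56 ± 0.053 in oxidative ECKO (adjusted p = 3.59e-09) and did not pass in glycolytic ECKO.

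Of 18 genes of endoplasmic reticulum stress 3 were higher and 4 lower in oxidative ECKO, near the shares of all genes (14.6% and 17.4%). In glycolytic ECKO 1 was higher and 9 were lower (13.9% and 15.1% of all genes). Dnajb9, a co-chaperone, was the 1 that rose in glycolytic ECKO, by 0.19 ± 0.054, and it fell in oxidative ECKO by 0.45 ± 0.053. The disulfide isomerases Pdia4 and Pdia6 did the reverse, with interactions of 0.44 ± 0.057 and 0.50 ± 0.062. Atf6, a sensor of unfolded proteins, fell in oxidative ECKO from 55.5 to 32.4 CPM. Of 12 genes of mitochondrial stress 7 were lower and 1 higher in oxidative ECKO (17.4% and 14.6% of all genes), and 5 were lower and 2 higher in glycolytic ECKO (15.1% and 13.9%). Hspa9, the mitochondrial HSP70, fell from 492 ± 29.6 to 145 ± 7.04 CPM in oxidative and from 202 ± 10.4 to 174 ± 5.36 CPM in glycolytic muscle. Atf5, a factor of the mitochondrial stress response, fell from 43.8 to 4.80 CPM and from 15.8 to 4.99 CPM. The mitochondrial proteases Lonp1 and Afg3l2 fell in oxidative ECKO by 0.54 and 0.20 on the log2 scale and did not pass in glycolytic ECKO (adjusted p = 0.848 and 0.0912).

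Targets of the antioxidant factor NRF2 fell in 9 of 10 members in oxidative ECKO (17.4% of all genes) and in 7 of 10 in glycolytic ECKO (15.1%). Hmox1, which breaks down heme, fell from 1621 ± 122 to 96.5 ± 18.3 CPM in oxidative muscle, close in interaction to Gdf15 (-3.81 ± 0.12), but it also fell in glycolytic muscle, from 156 ± 7.98 to 130 ± 1.72 CPM (adjusted p = 0.0195). Gclm, for glutathione synthesis, fell from 390 to 88.2 CPM and from 240 to 128 CPM. Txnrd1, a thioredoxin reductase, fell by 1.46 ± 0.053 and 0.29 ± 0.053 on the log2 scale, and Osgin1 by 1.91 ± 0.083 and 0.38 ± 0.084.

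Of 16 immediate early genes, which respond within minutes to growth signals and handling, 13 were lower and 1 higher in oxidative ECKO (17.4% and 14.6% of all genes), and 8 were lower and 2 higher in glycolytic ECKO (15.1% and 13.9%). Fosb fell from 116 ± 6.06 to 35.8 ± 6.38 CPM in oxidative muscle and stood at 15.3 and 17.0 CPM in glycolytic WT and ECKO (adjusted p = 0.279). Socs3, which dampens cytokine signalling, fell in both. Ier3 fell in oxidative ECKO by 0.72 on the log2 scale and did not pass in glycolytic ECKO (adjusted p = 0.115). Myc, which drives growth, was the 1 member with opposite calls like Gdf15, at 108 and 69.2 CPM in oxidative and 69.1 and 94.3 CPM in glycolytic WT and ECKO (adjusted p = 9.77e-06 and 0.00119).

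Other secreted stress factors were mostly lower in oxidative ECKO, and 7 of them were higher in glycolytic ECKO. Of 15 tested, 9 were lower and 2 higher in oxidative ECKO (17.4% and 14.6% of all genes), with a median of -0.85. In glycolytic ECKO 7 were higher and 2 lower (13.9% and 15.1% of all genes), with a median of 0.33. Adm and Hbegf had calls in both opposite directions. Adm, the vasodilator adrenomedullin, stood at 319 ± 21.5 and 174 ± 19.8 CPM in oxidative WT and ECKO and at 143 ± 9.14 and 271 ± 17.7 CPM in glycolytic WT and ECKO. The log2 differences of Adm were -0.88 ± 0.067 (adjusted p = 7.09e-11) and 0.92 ± 0.067 (adjusted p = 4.45e-11), beside -3.02 and 0.82 for Gdf15. Hbegf, a ligand of the EGF receptor, differed by -0.72 ± 0.072 and 0.61 ± 0.072.

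Cxcl1, a neutrophil chemokine, fell from 139 ± 4.71 to 26.9 ± 4.54 CPM in oxidative muscle and stood at 20.3 and 19.0 CPM in glycolytic WT and ECKO. Adm2, a relative of Adm under ATF4, fell in both, from 14.2 to 0.0324 CPM in oxidative and from 1.08 to 0.154 CPM in glycolytic muscle. Fgf21, the other endocrine factor of the stress response, was too low to test, at 0.319 CPM in oxidative WT.

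Calls like those of Gdf15, lower in oxidative and higher in glycolytic ECKO, were made for 323 of 13971 genes (2.31%, Gdf15 included), and the reverse pair of calls for 189. Since the rule that chose Gdf15 uses the same values, what follows describes these genes without a test. By the most negative interaction Gdf15 was number 10 of the 323. Before it came Gm49339, Nppb, Gm28306, Fcgr2b, Chil3, Gpnmb, Ankrd1, Fgd3 and Gm6061. Gm49339 was at 0 in all glycolytic WT libraries, so its place in this order depends on the prior count. Chil3, Fcgr2b, Nppb, Gm28306 and Fgd3 were also very low in glycolytic WT, at 0.0154, 0.0662, 0.0930, 0.117 and 0.203 CPM. Gm6061 spread from 4.22 to 62.9 CPM in glycolytic ECKO. The places of these genes, and the number 10 of Gdf15, are thus uncertain too. Ankrd1 and Gpnmb were the most abundant of these 9. Ankrd1, a nuclear protein that rises with mechanical load in muscle and vessels, stood at 80.2 ± 6.52 and 47.3 ± 21.2 CPM in oxidative and at 15.4 ± 1.63 and 205 ± 2.48 CPM in glycolytic WT and ECKO. Gpnmb, a glycoprotein of macrophages and other cells, stood at 123 ± 6.25 and 10.1 ± 2.57 CPM in oxidative and at 1.14 ± 0.359 and 2.51 ± 0.490 CPM in glycolytic muscle. Nppb, the natriuretic peptide BNP, stood at 3.17 and 0.914 CPM in oxidative and at 0.0930 and 3.42 CPM in glycolytic muscle. Fcgr2b and Chil3, known from myeloid cells, were at most 5.93 CPM in any group mean. A fall of at least 1 with a rise of at least 0.5 on the log2 scale was met by 21 of the 323. Cited2, a co-regulator of transcription, was among them, at 43.8 and 19.5 CPM in oxidative and 19.6 and 38.6 CPM in glycolytic WT and ECKO.

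The 10 genes whose profile over the 20 libraries was most like that of Gdf15 were found from log2 CPM, each gene centred on its mean, by the root mean square difference. They were Fosl1 (0.34), Lgals3 (0.45), Mt1 (0.47), Mirt1 (0.49), Ppp1r15a (0.55), Mmp12 (0.56), Lmo4 (0.58), Lonrf3 (0.59), Slc25a33 (0.59) and Sqstm1 (0.59), against a median of 1.21 over all genes. The libraries share muscle, genotype and depth in the same way for every gene, so the likeness is a description. Fosl1, a partner in AP-1, stood at 71.6 ± 10.3, 12.6 ± 3.23, 14.5 ± 2.62 and 17.5 ± 2.26 CPM in oxidative WT, oxidative ECKO, glycolytic WT and glycolytic ECKO. Lgals3, the gene of galectin-3, stood at 177 ± 10.6, 47.5 ± 6.87, 53.5 ± 4.59 and 71.6 ± 3.17 CPM in the same order. Mt1, a metallothionein, stood at 241, 65.5, 78.9 and 90.3 CPM. All 10 shared the high level in oxidative WT. Their log2 difference in glycolytic ECKO ran from -0.23 ± 0.079 for Lmo4 to 0.49 ± 0.39 for Mmp12, each below the 0.82 of Gdf15.

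**Figure D4:**
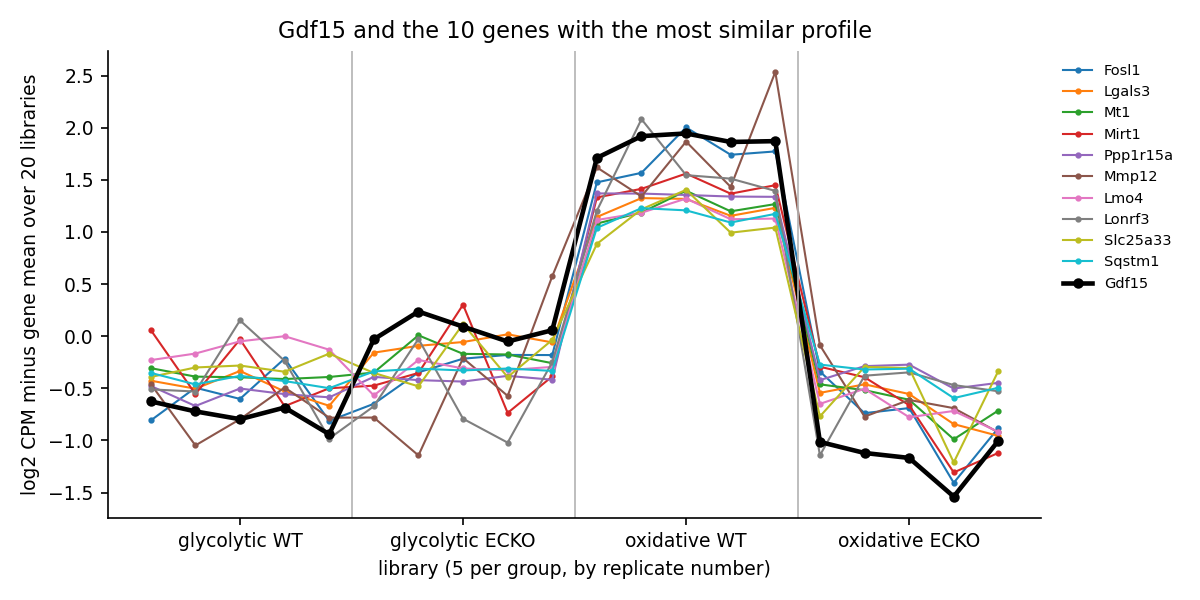
Log2 CPM minus the mean over all libraries (y) in the 20 libraries, 5 per group (x), for Gdf15 (thick black line) and the 10 genes most like it. All are highest in oxidative WT, and Gdf15 rises further from glycolytic WT to glycolytic ECKO, and drops lower in oxidative ECKO, than most of the others.

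Genes beside Gdf15 on chromosome 8 did not follow it as a block. Of 34 annotated genes that start within 250000 bases, 24 were tested, and 8 were higher and 3 lower in oxidative ECKO (14.6% and 17.4% of all genes). In glycolytic ECKO 4 were higher and 2 lower (13.9% and 15.1%), so apart from the 8 the counts were near or below those of genes in general. Neighbours on either side took different courses. Ssbp4 did not pass in either muscle. Pgpep1, a peptidase, rose in both, by 0.89 in oxidative and 0.41 in glycolytic ECKO, and Isyna1, for inositol synthesis, rose by 0.51 in oxidative ECKO and did not pass in glycolytic ECKO. Ell, an elongation factor of RNA polymerase II, was the neighbour with calls in the directions of Gdf15, at -0.25 (adjusted p = 0.0148) and 0.39 (adjusted p = 0.000375). Iqcn rose in glycolytic ECKO from 0.506 to 1.78 CPM. Jund, a part of AP-1 and also on the list of immediate early genes, fell by 0.25 ± 0.092 in oxidative ECKO (adjusted p = 0.0401).

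**Figure D5:**
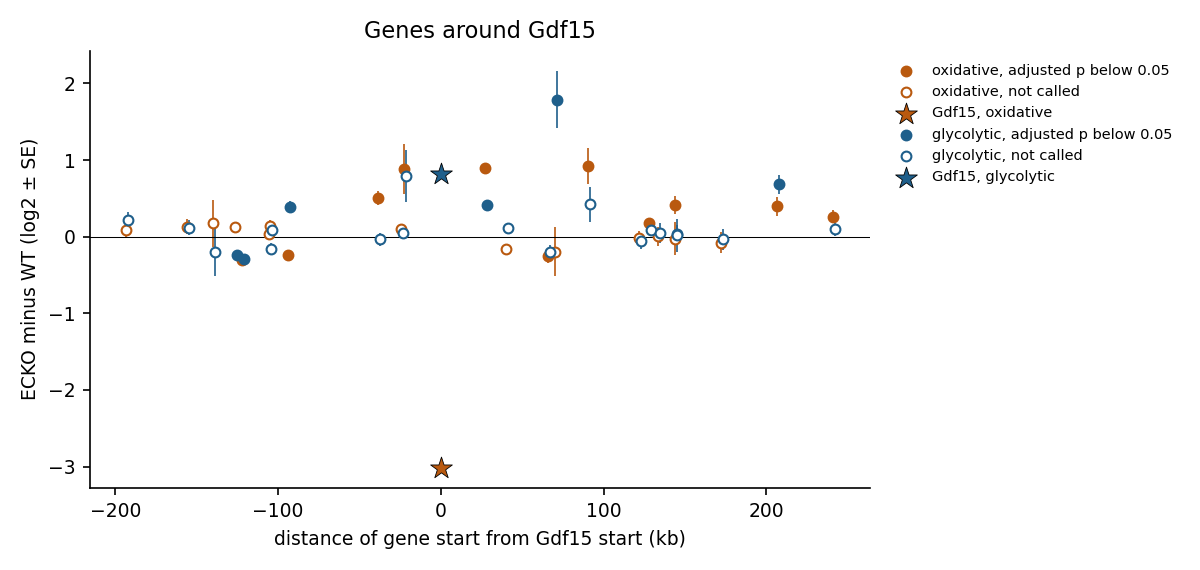
Log2 difference of ECKO from WT with its SE (y) for the 24 tested genes that start within 250000 bases of Gdf15, by distance of their start from that of Gdf15 in kb (x, by genome coordinate), in oxidative (orange) and glycolytic (blue) muscle. Filled points passed the test, and stars are Gdf15 at -3.02 and 0.82. No neighbour comes near the oxidative value of Gdf15.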

How the data were processed

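RNA of sorted CD31+ CD45- muscle endothelial cells was sequenced as stranded, single-end mRNA libraries, per the labels' protocols. Per the file headers, each of the 20 deposited tables gives an estimated count, a length, an effective length and a TPM value for every transcript. The submitters' processing notes name kallisto, DESeq2 and GRCh38.p13, with no versions of the tools given in the sources used here, while the transcript identifiers are mouse ones. The sources used here do not say how the authors' counting treated strand. Of 129439 transcripts 128643 were matched to the mouse GENCODE annotation, and unmatched ones took at most 0.221% of a library's counts.

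The deposited estimated counts were summed per gene and rounded to whole numbers. Genes passing edgeR's filterByExpr (13971) were scaled by TMM and fitted with edgeR 4.0.16 (limma 3.58.1, R 4.3.3) by the quasi-likelihood test, with all 20 libraries in 1 fit of 4 groups. P-values were adjusted by the Benjamini-Hochberg method over all genes tested, and adjusted p below 0.05 was called higher or lower. The SE is the size of the log2 difference divided by the square root of its F statistic. The deposited TPM values were summed over transcripts for levels per length. The fit was tested on data simulated with the same spread for all genes and with changes in oxidative ECKO alone. These settings differ from the libraries here, so that test cannot vouch for the calls made in them. Gdf15 and the gene lists were chosen with earlier results of these data known.

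Genes named were Atf4, the 10 genes with the smallest root mean square difference of centred log2 CPM from Gdf15 (prior count 2), the 10 most negative interactions among genes called like Gdf15 (itself included), genes that start within 250000 bases, up to 4 members of each list by smallest adjusted p of the interaction, members needed to state a list's role, and defining cell markers. Members with opposite calls, the exceptions of the stress response list, Cited2, Adm2, Ddit3, Cdkn1a and Trib3 were picked with values in view. One member of the secreted factors that the rule names is not reported here. As alternatives served RLE factors, DESeq2 1.42.0, no low-count filter, only the groups compared, the replicate number as a block, deposited TPM, the most read transcript, subsets of the oxidative ECKO libraries by Y-linked RNA, and leaving out each library. Motifs were sought in RefSeq promoter windows (GRCm38.p6).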

Additional observations from a re-analysis of the deposited data

Results flagged for a closer look

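Opposite genotype effects in both muscles, with a called difference between them, were seen for 12 of the list members named besides Gdf15, whose own interaction of -3.84 on the log2 scale chose it. Over all 13971 genes tested, opposite calls were made for 2.31% in the directions of Gdf15 and for 1.35% in the reverse. Members with opposite calls were picked for naming with values in view, so the 12 depends on the choice of names. Like Gdf15, Ppp1r15a (interaction -1.89), Adm (-1.80), Hbegf (-1.32), Eda2r (-1.11), Myc (-1.09), Mdm2 (-0.86), Dnajb9 (-0.63) and Eif2b1 (-0.41) were lower in oxidative and higher in glycolytic ECKO. Mmp14 (1.02), Pdia6 (0.50), Pdia4 (0.44) and Eif2ak1 (0.41) went the other way.

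Single libraries far from the other 4 of their group were found in 14 of 256 groups checked, and chance gives about 1 in 20. For Gdf15-202 the lowest oxidative ECKO library had 12.96 TPM, against a group median of 17.7. In glycolytic WT the highest library had 2.76 CPM of Pmaip1, 17.1 of Gadd45a, 169.8 of Hmox1, 170.4 of Trp53, 18.0 of Fosb and 82.9 of Mt1. In glycolytic ECKO the lowest had 199 CPM of Trp53 and 30.5 of Tgfb2, and the highest 3.92 of Mirt1. In oxidative WT the lowest had 46.6 CPM of Chac1 and the highest 234 of Herpud1. In oxidative ECKO the highest had 81.4 CPM of Dnajb9 and the lowest 0.636 of Lonrf3.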

How the results depend on the processing

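The Gdf15 differences kept their direction under every alternative run: -3.08 to -2.78 in oxidative ECKO, 0.61 to 0.89 in glycolytic ECKO, 2.40 to 2.63 between the muscles of WT, -1.28 to -0.97 between those of ECKO and -3.90 to -3.54 for the interaction. Deposited TPM gave -2.78, 2.40 and -3.67 for oxidative ECKO, WT muscles and interaction. Gdf15-202, the most read transcript, gave 0.61 in glycolytic ECKO, -0.97 between ECKO muscles, -3.54 for the interaction, and levels of 18.7, 29.8, 110 and 14.6 CPM in glycolytic WT, glycolytic ECKO, oxidative WT and oxidative ECKO. With log2 TPM 6 of the 10 most similar genes were shared. Calling the reverse pattern, the Y-linked oxidative ECKO libraries alone gave 285 genes in place of 189. Leaving out 1 library moved Gdf15 within -3.07 to -2.95, 0.77 to 0.85, 2.57 to 2.66, -1.26 to -1.14 and -3.88 to -3.76, and the genes called like it within 257 to 337. The causes were not tested.

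With the replicate number as a block (replicate block) Gdf15 differed by -3.02, 0.82, 2.62, -1.21 and -3.84, and 4332, 3969, 4388, 2442 and 3064 genes were called in place of 4470, 4054, 4520, 2573 and 3163. Deviations of same-numbered libraries from their group means correlated at -0.066 to 0.0996, so no pairing by number was seen. Such correlations cannot exclude that libraries of both muscles came from the same mice, which the sources used here do not say.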
